A study of Mus musculus with 8 samples.

Results

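The 34 genes described here make the proteins that copy DNA and supply its building blocks. They were chosen by name as the G1/S cyclins and E2F1, origin licensing factors, replicative helicase, polymerases with their clamp and clamp loader, enzymes of nucleotide synthesis, and chromatin assembly factors. All 34 were found among the 42649 genes of the deposited table, and all 34 passed the filter on low counts, which left 17367 genes for testing. RNA was sequenced, in 8 libraries, from cells that carried CD45, CD11b and F4/80. They were sorted, as tumour-associated macrophages, from liver metastases of C57BL/6 mice. The metastases were seeded by injecting MC38 cells, a mouse colon carcinoma line, into the spleen, and were taken 19 days later. In the control diet group (CD, 4 libraries) 10% of energy came from fat, and in the high-fat diet group (HFD, 4 libraries) 60% did. The diets began 6 weeks before the injection. The mice of both groups carried the same tumour line, no group was free of tumour, and the sources used here give neither age nor sex. Libraries are called CD 1 to CD 4 and HFD 1 to HFD 4 after their labels.

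Before a cell divides it licenses its origins in G1. There the origin recognition complex, with the help of CDC6 and CDT1, loads the MCM2-7 helicase onto DNA. On entry into S phase, cyclin E and its kinase, CDC45 and the GINS complex turn the loaded helicase on, and the polymerases follow it. Most of these genes are targets of E2F transcription factors and their transcripts peak around the G1/S boundary, so in a bulk RNA sample they follow how many cells are preparing for or passing through S phase. Macrophages of tumours and of the liver are fed by non-dividing monocytes and can also divide in place, whereas mature neutrophils do not divide. In bulk libraries such as these, fewer cells of a type and less RNA per cell cannot be told apart.

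Levels are given as counts scaled to a common library total (CPM) by TMM, a normalisation that adjusts library totals for differences in composition, or, where genes are set beside each other, as the authors' FPKM, which is scaled by transcript length and library but not by TMM. Library totals ran from 37180157 to 55717378 counts and TMM factors from 0.690 in CD 3 to 2.02 in HFD 1. CD 3 and CD 4 stood apart from the other 6 libraries: 13 neutrophil markers together took 109699 and 110997 CPM there, against 431 to 7425 elsewhere. More genes were detected in CD 3 and CD 4 as well, 34495 and 33449 against 21571 to 24556 elsewhere, although their total counts were the smallest. The reason was not tested. The sort markers were present throughout, with Adgre1, which encodes F4/80, at 209, 231, 100.1 and 93.4 CPM in CD 1 to CD 4 and 617, 198, 368 and 682 CPM in HFD 1 to HFD 4. Adgre1 was lowest in CD 3 and CD 4. Of the 15 macrophage markers 5 had CD 3 and CD 4 as their lowest pair, among them C1qb (1167 and 1140.2 CPM, against 2483 to 21194), for a complement subunit. In 3 others they were the highest pair, namely Ptprc, which encodes CD45, Fcgr1 and Cd14. The sum of the 15 was 45373 and 37606 CPM there against 55408 and 46408 in CD 1 and CD 2. Most of it in CD 3 and CD 4 was Lyz2 (27697 and 22685 CPM) and Cd14 (13693 and 11180 CPM), so it says little about the other markers. In CD 1 and CD 2 Lyz2 was at 32072 and 26386.5 CPM and Cd14 at 7756 and 6428. HFD 1 stood apart from the other HFD libraries, with 15 macrophage markers summing to 12271 CPM against 42576 to 104362 in HFD 2 to HFD 4. Much of this gap was Lyz2, at 3595 CPM in HFD 1 against 19114 to 54126 in HFD 2 to HFD 4. Among the HFD libraries all of the 15 but Adgre1 and Spi1 were lowest in HFD 1. Counts and medians over the gene lists are given with and without CD 3 and CD 4, and values of single genes library by library or as ranges.

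Promoters of 29 of the 34 genes were found in RefSeq (build GRCm38.p6, 250 bases before to 50 after each start), and 4 are shown because they belong to the genes that passed the interaction test below. Sequences run 5′ to 3′ on the strand of the gene, and capitals mark each 8-base E2F site, spelled TTTCCCGC, TTTCGCGC, TTTGCCGC or TTTGGCGC, on either strand, with overlapping sites run together. Mcm5 and Mcm7 encode subunits of the helicase, Pola1 the catalytic subunit of the polymerase that starts each strand, and Tk1 the cytosolic thymidine kinase.
Mcm5 (chr8:75109259-75109558, plus strand): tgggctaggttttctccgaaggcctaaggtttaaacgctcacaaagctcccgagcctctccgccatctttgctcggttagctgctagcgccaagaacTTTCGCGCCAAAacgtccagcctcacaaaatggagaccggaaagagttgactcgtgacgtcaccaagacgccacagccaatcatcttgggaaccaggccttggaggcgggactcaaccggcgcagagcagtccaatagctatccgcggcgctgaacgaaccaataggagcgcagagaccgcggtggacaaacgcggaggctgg
Mcm7 (chr5:138171834-138172133, minus strand): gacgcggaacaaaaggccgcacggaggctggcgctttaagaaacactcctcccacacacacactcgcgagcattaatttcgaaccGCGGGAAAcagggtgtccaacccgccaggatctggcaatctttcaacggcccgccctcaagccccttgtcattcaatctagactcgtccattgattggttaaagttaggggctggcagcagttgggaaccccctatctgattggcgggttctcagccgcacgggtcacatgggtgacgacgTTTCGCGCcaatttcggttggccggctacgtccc
Pola1 (chrX:93632106-93632405, minus strand): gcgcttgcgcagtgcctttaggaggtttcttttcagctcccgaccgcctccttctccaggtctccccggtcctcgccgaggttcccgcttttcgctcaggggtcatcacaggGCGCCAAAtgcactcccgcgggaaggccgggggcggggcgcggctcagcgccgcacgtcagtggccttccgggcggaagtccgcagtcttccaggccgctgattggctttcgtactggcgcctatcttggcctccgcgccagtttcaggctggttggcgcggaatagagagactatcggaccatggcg
Tk1 (chr11:117825965-117826264, minus strand): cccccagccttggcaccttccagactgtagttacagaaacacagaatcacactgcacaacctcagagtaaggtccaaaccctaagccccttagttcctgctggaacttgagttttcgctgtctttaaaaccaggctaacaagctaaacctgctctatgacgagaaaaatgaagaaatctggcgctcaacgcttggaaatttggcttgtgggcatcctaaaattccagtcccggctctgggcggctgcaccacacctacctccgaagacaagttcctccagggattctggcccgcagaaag
At least 1 E2F site was found for 13 of the 29 genes (44.8%), against 704 of the 27025 genes of the whole table (2.60%). The 13 were Cdc6, Cdt1, Hells, Lig1, Mcm3, Mcm5, Mcm6, Mcm7, Orc1, Pola1, Pold1, Rfc3 and Uhrf1. A CCAAT box, searched as CCAAT on both strands, was found for 16 of the 29 (55.2%) and for 41.1% of all genes. The CHR element of mitotic promoters, searched as TTTGAA on both strands, was found for 3 of the 29 (10.3%) and for 20.2% of all genes. A match describes letters in this window only. The other RefSeq window of Mcm7 held no E2F site, and the window of Tk1 held none.

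Across all 8 libraries, 30 of the 34 genes had a higher mean in HFD than in CD on the fitted scale, but the 4 CD libraries differed among themselves by more than the diets did. Summed over the 34 genes, the level in CPM was 498, 494, 191 and 182 in CD 1 to CD 4 and 523, 454, 360.4 and 359 in HFD 1 to HFD 4. CD 1 and CD 2 lay within the HFD range, and CD 3 and CD 4 lay below all 6 others. The mean of the sum was 341 ± 179 CPM for the CD libraries against 424 ± 79.7 for the HFD libraries (SD, n = 4 each). In edgeR's quasi-likelihood test 0 of the 34 genes passed an adjusted p of 0.05 in either direction, where 0.00576% of all genes tested did and 0.0% were called higher in HFD. At an unadjusted p under 0.05 the count was also 0 of 34 (12.9% of all genes), and DESeq2 called 0 of them and 3.68% of all genes. The smallest adjusted p in edgeR was 0.438, that of Rfc4. The median log2 fold change, HFD minus CD, was 0.36 over the 34 genes and 0.01 over all genes tested, and 50.8% of all genes were above 0. Without CD 3 and CD 4 the median was -0.19 and 10 of the 34 were above 0. In that fit 53.5% of all genes were above 0, with a median of 0.05. Across all 8 libraries, the median of the 34 taken relative to that of the 15 macrophage markers was -0.12. With the replicate number as a block the median was 0.59, and 0 of the 34 and 0.0% of all genes were called.

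**Figure D1:**
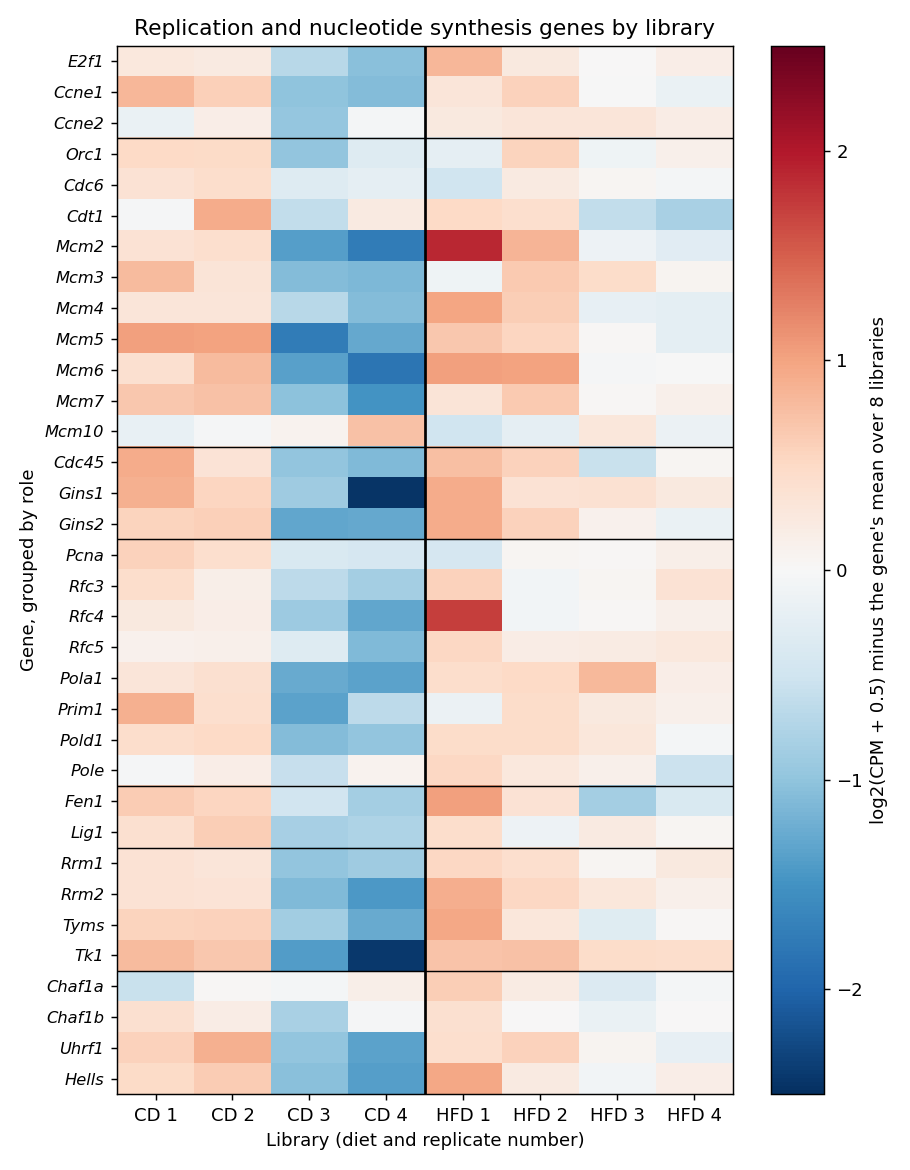
Heat map of the 34 genes (rows, grouped by role) in the 8 libraries (columns), coloured by log2(CPM + 0.5) minus the mean of the gene over all libraries. The columns of CD 3 and CD 4 are blue in most rows, while CD 1 and CD 2 have colours like those of the HFD libraries.

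CD 3 and CD 4 were the lowest pair of the 8 libraries in 25 of the 34 genes (73.5%), as they were in 18.2% of all genes tested. The 9 genes of which this was not true were Ccne2, Cdc6, Cdt1, Mcm10, Pcna, Pole, Fen1, Chaf1a and Chaf1b. The spread between CD libraries exceeded that between HFD libraries in 29 of the 34 genes and in 48.1% of all genes. The median SD of log2 CPM was 0.98 in CD and 0.37 in HFD for the 34 genes, against 0.58 and 0.60 for all genes. Between CD 1 and CD 2 alone it was 0.0920 for the 34 genes and 0.192 for all genes, and it exceeded that of HFD in 3 of the 34. Ccne2 and Rfc5 were the 2 of the 34 genes with all 4 HFD values above all 4 CD values, which held for 3.57% of all genes, and 0 had them below, which held for 4.8%.

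E2F1 and the E-type cyclins stand at the entry to S phase. Ccne2, which encodes cyclin E2, was at 1.41, 1.89, 0.597 and 1.56 CPM in CD 1 to CD 4 and 2.02, 2.13, 2.16 and 1.94 CPM in HFD 1 to HFD 4. The diets did not overlap, but CD 2 and HFD 4 differed by less than the spread within CD (log2 fold change 0.59 ± 0.40 with adjusted p = 0.535 in edgeR, n = 4 per diet). Ccne1, for cyclin E1, ran from 1.42 to 6.73 CPM in CD and from 3.13 to 5.58 in HFD. E2f1, the transcription factor that drives many of these genes and its own, was at 11.2, 10.9, 5.54 and 4.26 CPM in CD 1 to CD 4 and 17.0, 11.1, 9.35 and 10.4 CPM in HFD 1 to HFD 4. HFD 1 was highest, CD 3 and CD 4 were lowest, and the other 5 libraries lay close together.

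Of the 10 licensing and helicase genes, 7 were above 0 in the comparison of diets, with a median log2 fold change of 0.21, and 2 were above 0 without CD 3 and CD 4, with a median of -0.35. Mcm5 (chromosome 8, 75109569 to 75128439, in the files' coordinates) was at 26.1, 25.5, 3.35 and 4.88 CPM in CD 1 to CD 4 and 20.3, 18.5, 12.7 and 10.5 CPM in HFD 1 to HFD 4. CD 1 and CD 2 were the highest libraries, CD 3 and CD 4 the lowest, and HFD lay between them, so the diet means nearly coincided (log2 fold change 0.05 ± 0.61 with adjusted p = 0.984 in edgeR). Mcm7 (chromosome 5, 138164583 to 138172422) was at 19.1, 19.7, 5.51 and 3.82 CPM in CD 1 to CD 4 and 14.7, 18.6, 11.9 and 12.9 CPM in HFD 1 to HFD 4. Here too every HFD value fell between the pairs of CD values. Mcm2, whose product carries histones at the fork as well as being part of the helicase, was at 11.0, 11.4, 2.92 and 2.15 CPM in CD 1 to CD 4 and 32.3, 15.6, 7.62 and 6.82 CPM in HFD 1 to HFD 4. HFD 1 was the highest library, and the log2 fold change was the largest of the 34 (log2 fold change 1.18 ± 0.65 with adjusted p = 0.459 in edgeR). Mcm6 was also highest in HFD 1 and lowest in CD 4, and ran from 5.09 to 33.8 CPM in CD and from 19.1 to 40.1 in HFD. Mcm3 ran from 4.44 to 17.9 and 9.44 to 16.4 CPM, and Mcm4 from 3.13 to 9.04 and 5.99 to 14.7.

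The 6 subunits of the MCM2-7 ring are present once each in the complex, and their transcripts were compared per length. Within a library the highest subunit exceeded the lowest 3.42-fold to 4.43-fold in FPKM. Mcm6 was the highest in 6 libraries and Mcm5 in CD 1 and CD 4, and Mcm2 was the lowest in 7. HFD 1 was the exception, where Mcm3 was the lowest at 4.35 FPKM and Mcm2 stood at 8.04. Mcm2 was at 1.39, 1.53, 0.255 and 0.196 FPKM in CD 1 to CD 4 and 8.04, 2.28, 0.881 and 0.604 in HFD 1 to HFD 4. Outside HFD 1 the order of Mcm6 above Mcm4 above Mcm2 was kept in every library.

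**Figure D2:**
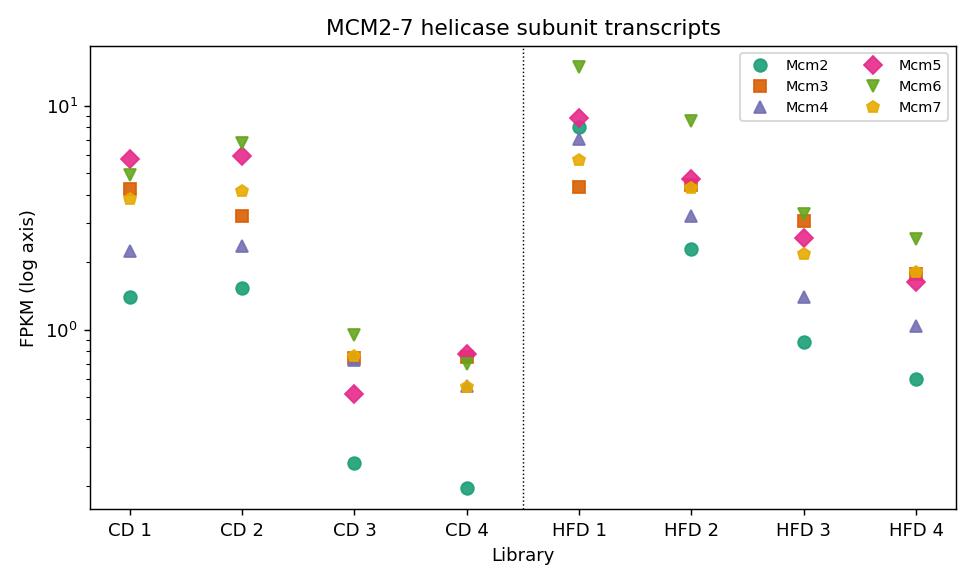
FPKM of the 6 MCM2-7 subunits (symbols, log axis) in each library. All 6 lie below 1 FPKM in CD 3 and CD 4, and the libraries of HFD run from 0.604 FPKM (Mcm2 in HFD 4) to 14.9 FPKM (Mcm6 in HFD 1).

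Cdt1, Cdc6 and Mcm10 did not share that shape. Cdt1, whose product brings the helicase to origins and is destroyed once S phase begins, was at 6.79, 13.5, 4.31 and 8.19 CPM in CD 1 to CD 4 and 9.91, 9.39, 4.34 and 3.74 CPM in HFD 1 to HFD 4. CD 2 was highest and HFD 4 lowest, and the diets overlapped fully (log2 fold change -0.26 ± 0.43 with adjusted p = 0.824 in edgeR). Cdc6, the ATPase that works beside CDT1, was at 1.89, 2.01, 0.996 and 1.09 CPM in CD 1 to CD 4 and 0.822, 1.68, 1.42 and 1.3 CPM in HFD 1 to HFD 4. Mcm10, which binds the helicase when it is activated and is no part of the ring, was highest in CD 4, at 1.72, 1.99, 2.19 and 3.71 CPM in CD 1 to CD 4 and 1.3, 1.67, 2.61 and 1.80 CPM in HFD 1 to HFD 4. These were 3 of the 4 genes below 0 in the comparison, with Pcna as the other one. Orc1, the subunit of the origin recognition complex whose level varies with the cell cycle, was the scarcest of the 34 by mean FPKM. It had 0 counts in CD 3, which allows up to 0.0996 CPM by a limit of 3 counts, or 0.122 CPM by the exact 95% Poisson interval, and 8 in CD 4, against 0.348 to 0.952 CPM elsewhere. Such limits and intervals account for counting error alone, because PCR duplicates need not stem from separate molecules.

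CDC45 and the 4-subunit GINS complex join MCM2-7 to make the running helicase. Gins1 was at 6.05, 4.60, 1.39 and 0.146 CPM in CD 1 to CD 4 and 6.21, 4.05, 4.11 and 3.66 CPM in HFD 1 to HFD 4. The value of CD 4 rests on 4 counts (exact Poisson interval 0.0397 to 0.373 CPM), and Gins1 had the largest spread in CD of the 34 genes. Gins2 ran from 3.75 to 15.2 CPM in CD and from 8.78 to 19.3 in HFD, and Cdc45 from 1.49 to 7.67 and 2.40 to 6.77. All 3 were lowest in CD 3 and CD 4.

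Pcna encodes the sliding clamp that holds polymerases on DNA and also serves in repair, and it was the most abundant of the 34 transcripts per length in all 8 libraries. It was at 42.0, 39.9, 15.1 and 15.4 FPKM in CD 1 to CD 4 and 41.2, 33.6, 26.0 and 21.8 in HFD 1 to HFD 4. In TMM-scaled counts it was at 113, 102, 58.5 and 57.0 CPM in CD 1 to CD 4 and 57.1, 79.3, 77.4 and 83.9 CPM in HFD 1 to HFD 4. CD 1 and CD 2 were highest and HFD 1 was level with CD 3 and CD 4, so the diets overlapped (log2 fold change -0.15 ± 0.31 with adjusted p = 0.858 in edgeR). The retained pseudogene Pcna-ps2 stayed at 0.498 to 1.61 CPM, and reads that it shares with Pcna could fall to either.

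The clamp loader subunits Rfc4 and Rfc5 gave 2 different pictures. Rfc5 was at 11.5, 11.6, 8.43 and 4.69 CPM in CD 1 to CD 4 and 15.4, 12.2, 12.3 and 12.9 CPM in HFD 1 to HFD 4. The diets did not overlap, with CD 1 and CD 2 just under HFD 2 (log2 fold change 0.54 ± 0.30 with adjusted p = 0.469 in edgeR). Rfc4 was at 8.77, 8.25, 3.65 and 2.66 CPM in CD 1 to CD 4 and 25.5, 6.92, 7.48 and 8.01 CPM in HFD 1 to HFD 4. HFD 1 stood alone, and the other 3 HFD libraries lay below CD 1 and CD 2. Eif4a2, a neighbour on the opposite strand that shares 12.7% of the exon bases of Rfc4, was at 13 CPM in HFD 1 and 12.6 to 23.3 elsewhere. Rfc3 ran from 3.35 to 8.82 CPM in CD and from 6.12 to 9.78 in HFD.

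The polymerase genes were low in CD 3 and CD 4 apart from Pole. Pola1 (chromosome X, 93304767 to 93632155, in the files' coordinates) was at 7.37, 7.90, 2.16 and 2.04 CPM in CD 1 to CD 4 and 8.22, 8.48, 10.8 and 6.65 CPM in HFD 1 to HFD 4. CD 1 and CD 2 lay within the HFD range and CD 3 and CD 4 far below it. Prim1, the primase subunit that lays the RNA primer for polymerase alpha, ran from 1.92 to 10.8 CPM in CD and from 5.07 to 7.98 in HFD. Pold1, the catalytic subunit of the lagging-strand polymerase delta, ran from 1.99 to 6.89 and 4.54 to 6.70 CPM. Pole, its counterpart on the leading strand, was at 3.25, 3.80, 2.06 and 3.57 CPM in CD 1 to CD 4 and 4.99, 4.09, 3.68 and 2.16 CPM in HFD 1 to HFD 4. Its lowest libraries were CD 3 and HFD 4, so it did not separate CD 3 and CD 4 from the rest.

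FEN1 trims the flaps of Okazaki fragments and DNA ligase I, the product of Lig1, joins them. Fen1 was at 21.1, 19.6, 9.46 and 7.24 CPM in CD 1 to CD 4 and 27.7, 17.3, 7.21 and 10.1 CPM in HFD 1 to HFD 4. HFD 1 was highest and HFD 3 lowest, so the HFD libraries alone spanned the whole range (log2 fold change 0.12 ± 0.48 with adjusted p = 0.940 in edgeR). Lig1 ran from 11.2 to 31.4 CPM in CD and from 18.6 to 28.0 in HFD, with CD 3 and CD 4 lowest.

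All 4 nucleotide synthesis genes were lowest in CD 3 and CD 4. Rrm2 encodes the small subunit of ribonucleotide reductase, the enzyme that makes deoxynucleotides, and its level limits the enzyme in S phase. It was at 21.3, 21.1, 7.47 and 5.79 CPM in CD 1 to CD 4 and 31.4, 23.9, 20.1 and 18.2 CPM in HFD 1 to HFD 4. CD 1 and CD 2 lay within the HFD range (log2 fold change 0.75 ± 0.44 with adjusted p = 0.483 in edgeR). Rrm1, the large subunit, is less tied to the cell cycle and ran from 6.70 to 17.7 CPM in CD and from 14.1 to 19.7 in HFD. Tk1 (chromosome 11, 117815526 to 117826092), the salvage enzyme for thymidine, was at 25, 23.2, 5.11 and 2.29 CPM in CD 1 to CD 4 and 23.8, 24.3, 19.9 and 19.7 CPM in HFD 1 to HFD 4. CD 4 was lowest, CD 3 next, and the other 6 libraries lay within 19.7 to 25 CPM. Tyms, for thymidylate synthase, ran from 3.78 to 14.9 CPM in CD and from 7.90 to 19.8 in HFD.

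Among the chromatin genes, the 2 that act on DNA methylation behind the fork were lowest in CD 3 and CD 4, as the helicase genes were, and the 2 subunits of CAF-1, which loads new histones, were not. Uhrf1, whose product reads hemimethylated DNA and recruits DNMT1, ran from 2.07 to 11.7 CPM in CD and from 5.18 to 9.21 in HFD. Hells, a chromatin remodeller needed for DNA methylation, ran from 3.17 to 14.4 and 8.64 to 18.2 CPM. Chaf1a was at 2.15, 3.44, 3.25 and 3.78 CPM in CD 1 to CD 4 and 5.41, 3.94, 2.56 and 3.21 CPM in HFD 1 to HFD 4, with the smallest spread in CD of the 34 genes. Chaf1b ran from 3.45 to 8.68 CPM in CD and from 5.67 to 8.63 in HFD. Chaf1a shares 52.5% of its exon bases with Ubxn6 on the opposite strand (7.43 to 19.5 CPM), Gins2 67.3% with Gse1 and Fen1 78.8% with Gm10143. The protocol describes no step that keeps the strand, so the levels of these genes are uncertain by the reads that such pairs share.

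The diets were also compared within replicate numbers 1 and 2 and within 3 and 4. This division was taken from how the libraries group in these data, where CD 3 and CD 4 stand apart. The labels mention no batch and do not say what a replicate number means. A batch, the neutrophil transcripts, the larger number of genes detected and the replication genes of CD 3 and CD 4 thus cannot be told apart. Within numbers 1 and 2, where CD 1 and CD 2 meet HFD 1 and HFD 2, 0 of the 34 genes were called by edgeR, as were 0.0% of all genes, and 19 of the 34 were above 0 with a median log2 fold change of 0.01. At an unadjusted p under 0.05 there was 1, Mcm2 (log2 fold change 1.11 ± 0.40), where 12.1% of all genes passed. Within numbers 3 and 4 the same comparison called 20 of the 34 higher in HFD and 0 lower, where 11.5% of the 20106 genes tested were called higher and 16.5% lower, 28.0% in all. There 31 of the 34 were above 0, against 45.5% of all genes, and the median was 1.24 against -0.15 for all genes. Each of these fits rests on 2 libraries per diet, and the second contrasts HFD 3 and HFD 4 with the pair that stood apart.

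Genes called in the second comparison came from every role. They were E2f1, the helicase subunits Mcm2, Mcm3, Mcm5, Mcm6 and Mcm7, Gins2, the clamp loader subunits Rfc3, Rfc4 and Rfc5, Pola1, Prim1, Pold1, Lig1, all 4 of the nucleotide synthesis genes, Uhrf1 and Hells. Tk1 rose most among them, with a log2 fold change of 2.50 ± 0.37 (adjusted p = 0.00664 in edgeR), followed by Pola1 with 2.14 ± 0.34 (adjusted p = 0.00807). Mcm6 rose by 1.72 ± 0.25 and Rrm2 by 1.61 ± 0.23 (adjusted p = 0.00591 and 0.00600 in edgeR). Gins1 was at 2.40 ± 0.81 and did not pass (adjusted p = 0.0652). The loading factor Cdt1 (-0.54 ± 0.36), the helicase activation factor Mcm10 (-0.33 ± 0.44) and the CAF-1 subunit Chaf1a (-0.20 ± 0.34) were the 3 below 0, and none of these passed.

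**Figure D3:**
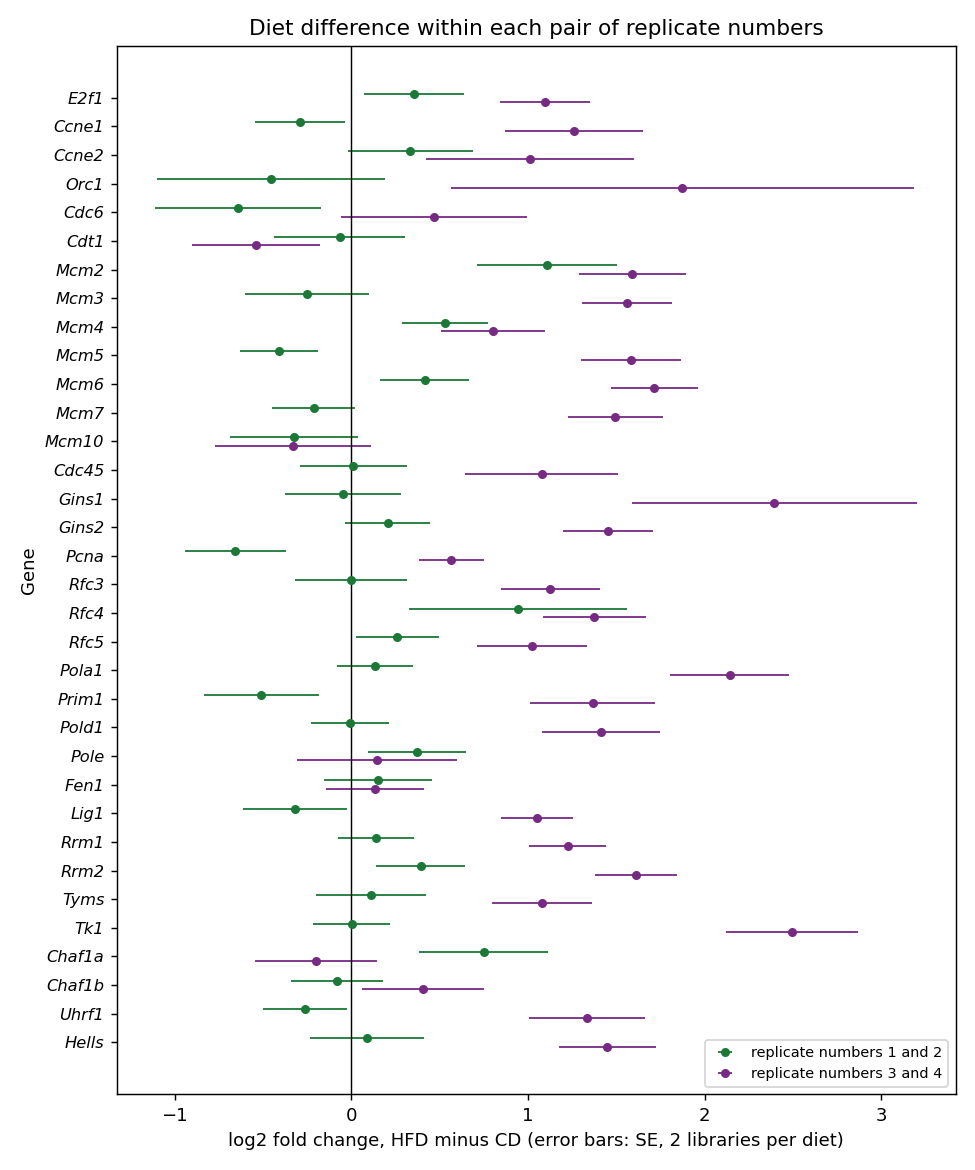
log2 fold change, HFD minus CD, of each gene within replicate numbers 1 and 2 (green) and within 3 and 4 (purple), with SE bars from 2 libraries per diet. Green points scatter around 0 (median 0.01) and purple points lie mostly above 1 (median 1.24), apart from genes such as Cdt1, Mcm10, Pole, Fen1 and Chaf1a.

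The difference between the 2 comparisons was tested as the interaction of diet with the division of the replicate numbers. Because the division was chosen from these same data, the p-values of this test are no independent evidence of a difference. In edgeR 4 of the 34 genes passed, all with the higher log2 fold change in numbers 3 and 4, where 2.22% of all genes passed in that direction and 3.85% in both. Within numbers 1 and 2 their log2 fold changes were -0.41 for Mcm5, -0.21 for Mcm7, 0.13 for Pola1 and 0.00289 for Tk1. Tk1 had an interaction of 2.42 ± 0.47 on the log2 scale (adjusted p = 0.0285 in edgeR), Pola1 of 1.93 ± 0.41 (adjusted p = 0.0377), Mcm5 of 1.91 ± 0.35 (adjusted p = 0.0243) and Mcm7 of 1.63 ± 0.36 (adjusted p = 0.0427). These are the genes whose promoters are printed above, chosen after their values were seen. For Mcm5, Mcm7 and Pola1 the promoter held an E2F site, and for Tk1 it did not. At an unadjusted p under 0.05 there were 18 of the 34, all in the same direction, where 11.9% of all genes passed in that direction. The count of 4 fell to 0 with library size as the only scaling and when CD 1, CD 2, CD 4 or HFD 3 was left out, to 2 without CD 3 and to 1 without HFD 4. The shares of all genes called were 1.73% with library size only, 0.445% without CD 1, 0.372% without CD 2, 0.776% without CD 3, 0.352% without CD 4, 0.888% without HFD 3 and 1.05% without HFD 4. The count was 7 without HFD 1 (5.83% of all genes), 10 without HFD 2 (14.4%), 11 with no filter on low counts (5.2%) and 8 in DESeq2 (10.2%). With a term for the division in place of the interaction, Mcm2 was the 1 gene called (log2 fold change 1.3 ± 0.26, adjusted p = 0.0419 in edgeR), where 1.03% of all genes were called higher and 2.05% in either direction.

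Other genes of the same pathways, listed by function and not by how they moved, were less uniform. Of 136 such genes 95 were above 0 across all 8 libraries with a median log2 fold change of 0.26, which was 0.02 without CD 3 and CD 4, and 0 were called by edgeR. At an unadjusted p under 0.05 there were 8 of the 136 higher, where 5.31% of all genes were, and 5 lower, where 7.56% were. The 37 other fork and origin genes had 25 above 0 (20 without CD 3 and CD 4), and 0 were called. Rfc1, the large clamp loader subunit, had the smallest p of these and was at 10.8 ± 2.37 CPM under CD against 17.3 ± 4.21 under HFD (SD, n = 4, adjusted p = 0.337 in edgeR). Dbf4, which activates the CDC7 kinase, was at 5.32 ± 1.24 CPM under CD against 7.58 ± 1.33 under HFD, and Clspn, the fork protein claspin, at 4.11 ± 1.21 CPM under CD against 6.35 ± 1.96 under HFD. Within replicate numbers 3 and 4, 11 of the 37 were called higher, where 11.5% of all genes were, and 0 lower, where 16.5% were.

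Of the 32 other nucleotide synthesis genes 24 were above 0 (15 without CD 3 and CD 4), and 0 were called across all 8 libraries. Paics, an enzyme of purine synthesis, was at 11.3 ± 3.51 CPM under CD against 20.2 ± 5.09 under HFD, and Impdh1, which commits purines to guanine nucleotides, at 10.9 ± 1.31 CPM under CD against 17.2 ± 4.33 under HFD. Dck, the deoxycytidine kinase of the salvage route, was at 9.92, 10.7, 24.9 and 23.6 CPM in CD 1 to CD 4 and 4.67, 6.53, 8.78 and 12.5 CPM in HFD 1 to HFD 4. CD 3 and CD 4 were highest, and CD 1 and CD 2 lay within the HFD range. Rrm2b, the reductase subunit that serves cells outside S phase, was at 1.16, 1.58, 2.72 and 2.55 CPM in CD 1 to CD 4 and 2.32, 2.90, 1.95 and 3.27 CPM in HFD 1 to HFD 4. Unlike Rrm2, it was not low in CD 3 and CD 4.

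Of 11 genes that break deoxynucleotides down or salvage bases 8 were above 0 (3 without CD 3 and CD 4). In 3 of the 11 every HFD value lay below every CD value, which held for 4.8% of all genes, and in 1, Cda, every HFD value lay above, which held for 3.57%. The first 3 had the smallest p of the list. Cda, for cytidine deaminase, was singled out after its values were seen, at 5.39, 4.26, 2.06 and 2.22 CPM in CD 1 to CD 4 and 8.17, 10.4, 6.55 and 5.82 CPM in HFD 1 to HFD 4 (log2 fold change 1.15 ± 0.37 with adjusted p = 0.280 in edgeR). Samhd1 encodes the enzyme that hydrolyses deoxynucleotide triphosphates and keeps their pool small in macrophages. It was at 136, 119.9, 445 and 410.2 CPM in CD 1 to CD 4 and 39.6, 82.0, 97.9 and 105 CPM in HFD 1 to HFD 4. CD 3 and CD 4 were far the highest (log2 fold change -1.78 ± 0.52 with adjusted p = 0.264 in edgeR). Within replicate numbers 1 and 2 its log2 fold change was -1.07 and within 3 and 4 it was -1.99 (adjusted p = 0.401 and 0.00250 in edgeR). Upp1, for uridine phosphorylase, was at 18.5, 13.6, 192 and 170.4 CPM in CD 1 to CD 4 and 5.98, 9.52, 6.03 and 7.04 CPM in HFD 1 to HFD 4. Pnp, for purine nucleoside phosphorylase, was at 149, 120.3, 274 and 245 CPM in CD 1 to CD 4 and 48.0, 81.0, 71.7 and 104 CPM in HFD 1 to HFD 4. In both genes CD 3 and CD 4 were highest too, and neither passed (adjusted p = 0.219 and 0.250 in edgeR).

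Of the 29 other regulators of G1 and of E2F, 21 were above 0 (18 without CD 3 and CD 4), and 0 were called. Ccna2, for the S phase cyclin A2, was at 10.3, 10.0, 3.72 and 2.11 CPM in CD 1 to CD 4 and 7.27, 10.3, 19.96 and 14.9 CPM in HFD 1 to HFD 4. It was lowest in CD 3 and CD 4 like Ccne1, but highest in HFD 3, whereas Ccne1 was highest in CD 1. Cdk6, a kinase that acts with D-type cyclins, was even in CD (51.8 to 53.7 CPM) and stood at 378 CPM in HFD 1 against 58.6 to 66.8 in HFD 2 to HFD 4. Ccnd3, for cyclin D3, was at 40.7 ± 6.06 CPM under CD against 26.1 ± 11.3 under HFD. Ccnd1, for cyclin D1, was at 52.9 ± 37.1 CPM under CD against 53.4 ± 22.1 under HFD. Cdkn1a encodes p21, an inhibitor of cyclin-dependent kinases and of PCNA, and it was at 1767, 1529.9, 2374 and 2166 CPM in CD 1 to CD 4 and 322, 1222, 964 and 1705 CPM in HFD 1 to HFD 4. It was highest in CD 3 and CD 4 and lowest in HFD 1, and it overlapped between the diets (log2 fold change -0.90 ± 0.52 with adjusted p = 0.482 in edgeR). Dnmt1, the maintenance DNA methyltransferase that follows the fork, was at 7.10, 8.52, 3.72 and 4.66 CPM in CD 1 to CD 4 and 10.7, 8.85, 11.1 and 9.92 CPM in HFD 1 to HFD 4. Every HFD value was above every CD value, though the gene did not pass (adjusted p = 0.333 in edgeR). In the same list of 11 chromatin and histone supply genes, 8 were above 0 (5 without CD 3 and CD 4), with the histone chaperone Asf1a at 6.70 ± 2.07 CPM under CD against 11.3 ± 5.43 under HFD and the histone mRNA binding protein gene Slbp at 50.9 ± 14.0 CPM under CD against 32.0 ± 13.4 under HFD. Of 16 genes of replication stress and repair 9 were above 0 (10 without CD 3 and CD 4). Atrip, a partner of the checkpoint kinase ATR, was at 32.6 ± 10.6 CPM under CD against 16.1 ± 4.62 under HFD, and Esco2, which joins sister chromatids in S phase, at 1.43 ± 0.376 CPM under CD against 3.85 ± 2.57 under HFD.

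Transcripts of several other cell types, though not of all, moved with the difference between the CD libraries. All 13 neutrophil markers were below 0 in the comparison of diets, and their sum ran from 1639 to 110997 CPM in CD and 431 to 7425 in HFD. Without CD 3 and CD 4 the direction turned, with 10 of the 13 above 0 and a median log2 fold change of 0.51, where 53.5% of all genes were above 0. The 8 classical monocyte markers were all below 0, and 3 were above 0 without CD 3 and CD 4. Their summed CPM was 2047, 1759.9, 24590.2 and 20926 in CD 1 to CD 4 and 1022, 3274, 2093 and 4914 in HFD 1 to HFD 4. Thus CD 3 and CD 4, which were lowest in 25 of the 34 genes, had the highest sums of the neutrophil and monocyte lists. Most of the monocyte sum there was Chil3 (18493 and 14815 CPM). Ccr2, Vcan and Fn1 of that list did not have CD 3 and CD 4 as their highest pair, and its other genes did. Erythroid markers were also highest there (13062 and 12333 CPM, against 172 to 4814). The part of these cells in the level of the 34 genes was not tested. Progenitors of neutrophils divide, and 8 progenitor markers summed to 58.7 to 262 CPM in CD and 128 to 169.7 in HFD. The highest sums, in CD 3 and CD 4, came from Ngp alone (241 and 192 CPM), a granule gene of late precursors. The 7 others summed to 20.1 and 20.4 CPM there against 24.7 to 48.4 elsewhere. Of these 7 only Camp had CD 3 and CD 4 as its lowest pair (4.65 and 5.02 CPM, against 12.7 to 27.3). Elane was at 4.48 and 1.89 CPM there, against 0.166 to 8.05 elsewhere. Mpo, of early precursors, was highest in HFD 1 and HFD 2 (4.88 and 5.37 CPM, against 0.570 to 2.17).

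The sum of the 9 epithelial markers listed for MC38 cells was highest in CD 3 and CD 4. It was 9.81, 7.10, 19.3 and 13.5 CPM in CD 1 to CD 4 and 8.09, 6.50, 8.73 and 4.96 CPM in HFD 1 to HFD 4. Gene by gene, Krt8, Krt18, Krt7 and Cldn7 had CD 3 and CD 4 as their highest pair and the others did not. Lgals4 was highest in HFD 1 (2.38 CPM) and Cdh1 in HFD 3 (1.78 CPM). Epcam was at most 1.43 CPM, with 0 counts in HFD 4, Krt19 had 0 counts in HFD 1 and HFD 4, and Cldn7 had 0 in HFD 1, HFD 3 and HFD 4. Fibroblast and stellate cell markers were lowest in CD 3 and CD 4 and highest in HFD 1 and HFD 2, with summed CPM of 283, 268, 36.6 and 35.0 in CD 1 to CD 4 and 681, 677, 204 and 139 in HFD 1 to HFD 4. The sum of the B cell markers was lowest in CD 3 and CD 4 too, at 12.7 and 11.9 CPM against 24.6 to 71.1 elsewhere. Not every gene of that list followed, as Pax5 was highest there (1.23 and 1.89 CPM, against 0 to 0.499). Kupffer cells are the resident macrophages of the liver, and their 7 markers had summed CPM of 219, 205, 103 and 99.8 in CD 1 to CD 4 and 267, 296, 569 and 487 in HFD 1 to HFD 4. Every HFD sum lay above every CD sum and CD 3 and CD 4 were lowest. All 7 were above 0, with and without CD 3 and CD 4, and 6 of the 7 were higher at an unadjusted p under 0.05 in edgeR (0 were called), where 5.31% of all genes were. The part of these cell types too was not tested. Mitotic genes were lowest in CD 3 and CD 4 as well, but the HFD libraries stood in another order. Their 12 transcripts had summed CPM of 148, 169.9, 55.2 and 56.3 in CD 1 to CD 4 and 200.3, 165, 239.6 and 183 in HFD 1 to HFD 4. Mitotic transcripts peaked in HFD 3, where the replication genes were lower than in HFD 1 and HFD 2.

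**Figure D4:**
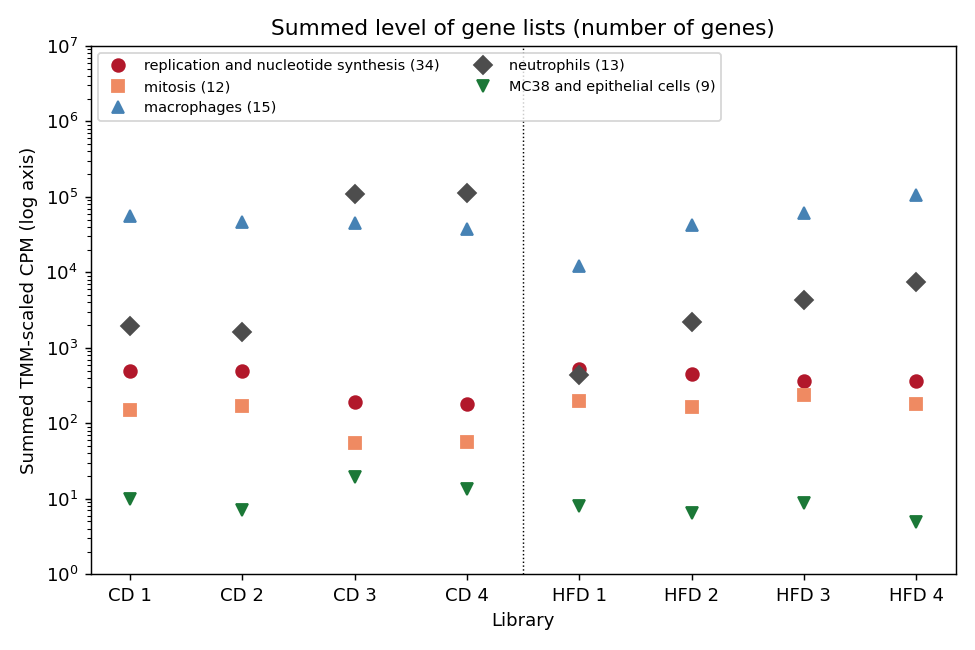
Summed TMM-scaled CPM (log axis) of the 34 replication and nucleotide synthesis genes and of 4 other lists in each library. Replication and mitosis sums are lowest in CD 3 and CD 4, where the neutrophil sum reaches 109699 and 110997 CPM, while MC38 and epithelial markers stay under 20 CPM.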

How the data were processed

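Reads were trimmed with cutadapt 1.9, aligned with HISAT2 2.0.4 and assembled with StringTie 1.3.4d, as far as the submitters' processing notes name these tools. Their settings, and the annotation and genome build behind them, were not given in the sources used here. Gene counts, not normalized, and FPKM values of the same 8 libraries were deposited by the authors in one table. Of its 42649 gene IDs, 42502 were found in GENCODE M21 (GRCm38), 39410 of them with the same coordinates, as had 30 of the 34 members. The members and lists, and the tests, were chosen with earlier results of these data known.

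Counts were filtered (filterByExpr), scaled by TMM and tested with edgeR 4.0.16 (R 4.3.3), with diet as the only term, in a two-sided quasi-likelihood test with Benjamini-Hochberg adjustment over 17367 genes and a threshold of 0.05. DESeq2 1.42.0 and, on log2(FPKM + 1) and log2(FPKM + 0.1), limma 3.58.1 were alternatives. SE of a log2 fold change is from the fit, and ± beside CPM is SD. The scripts were tested on simulated counts with 200 seeded genes. Genes given library by library are those whose diets did not overlap, that passed an unadjusted p of 0.05, that were among the 4 highest by FPKM, that had the smallest or largest spread in CD or that went against the median. Others given so were chosen after their values were seen. In each list of other genes the 3 of smallest p are named, with Samhd1, Rrm2b, Cdkn1a, Ccnd1 and Dnmt1, and 2 genes that this rule names are not reported here.

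Libraries of the same replicate number in both diets deviated together from their group means, with correlations across genes of 0.11, 0.29, 0.22 and 0.18 for numbers 1 to 4. Libraries of different numbers on the same side of the division of 1 and 2 against 3 and 4 correlated as much (0.16 to 0.32) and those on opposite sides negatively (-0.32 to -0.13). The block on replicate number was therefore fitted as an alternative. Each diet has 4 libraries, which the labels number 1 to 4 without naming an animal. Same-diet pairs differed by more than sampling noise (median chi-square per gene 3.50 to 101, against 0.455 for noise alone), so no library was counted as a repeat. The value was 3.50 for CD 3 with CD 4 and 4.66 for CD 1 with CD 2. It was 24.6 to 27.0 for the other CD pairs and 10.8 to 101 for the HFD pairs. Such values cannot tell separate animals from separate preparations of the same animal.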

Additional observations from a re-analysis of the deposited data

Results flagged for a closer look

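Rfc4, the clamp loader subunit, stood at 25.5 CPM in HFD 1, far from the 6.92 to 8.01 CPM of the other 3 HFD libraries. This was the 1 value so far from its group among the 68 groups examined (34 genes in each diet), and chance flags about 1 in 20 such groups.

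The diet difference of 4 genes differed between replicate numbers 3 and 4 and numbers 1 and 2, by an interaction term in edgeR. The division was chosen from these same data, so the term is no independent test. The log2 difference was 1.91 for Mcm5, 1.63 for Mcm7, 1.93 for Pola1 and 2.42 for Tk1. All 4 are lowest in CD 3 and CD 4, the libraries with the most neutrophil transcripts, whose part in this was not tested.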

How the results depend on the processing

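The call of no gene of the 34 was kept in edgeR with DESeq2 size factors, with library size as the only scaling, with no filter, with the replicate block, without CD 3 and CD 4, without each library in turn, in DESeq2 and in limma, where 27 of the 34 were tested with the filter on FPKM and all 34 without it. It changed to 1 with the term for the division and to 20 within replicate numbers 3 and 4. Over all genes, 0 were called higher and 1 lower; these counts were 119 and 296 with no filter on low counts, 143 and 496 in DESeq2, 179 and 177 with the division term and 2314 and 3310 within numbers 3 and 4, and 0 genes were called lower with library size only, with the replicate block, within numbers 1 and 2, without CD 3 and CD 4 and in each limma fit. Leaving out each library in turn gave 0 to 1 genes lower. Genes above 0 numbered 19 of 34 within numbers 1 and 2, 10 without CD 3 and CD 4 and 22 to 31 without each library in turn, and the median of the 34 was 1.24 within numbers 3 and 4 and 0.18 to 0.69 without each library. Library size as the only scaling moved the median of all genes to 0.42 and that of the 34 to 0.79, with all 34 above 0. The 136 other genes had a median of 0.69 with library size only, 0.59 on log2(FPKM + 0.1) and -0.22 relative to macrophage markers, and 0.16 to 0.36 without each library. The interaction count was 0 with library size only, 11 with no filter, 8 in DESeq2 and 0 to 10 without each library in turn, a check of this count chosen after seeing the data. The replicate block changed no call of the 34 genes, and the cause of these changes was not tested.

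Of 666 gene values under an alternative, 575 kept their direction and their side of the threshold, 70 changed sign and 21 passed the threshold with the same sign. With library size only, the log2 fold change changed sign to 0.0468 for Cdc6, 0.28 for Cdt1, 0.00632 for Mcm10 and 0.11 for Pcna. Within replicate numbers 1 and 2 it changed sign to -0.29 for Ccne1, -0.45 for Orc1, -0.25 for Mcm3, -0.41 for Mcm5, -0.21 for Mcm7, -0.0465 for Gins1, -0.51 for Prim1, -0.00601 for Pold1, -0.32 for Lig1, -0.0797 for Chaf1b and -0.26 for Uhrf1. Within replicate numbers 3 and 4 it changed sign to 0.47 for Cdc6, 0.57 for Pcna and -0.20 for Chaf1a. Without CD 3 and CD 4 together it changed sign to -0.57 for Ccne1, -0.62 for Orc1, -0.29 for Mcm3, -0.74 for Mcm5, -0.0223 for Mcm6, -0.42 for Mcm7, -0.41 for Cdc45, -0.24 for Gins1, -0.15 for Gins2, -0.0547 for Rfc3, -0.52 for Prim1, -0.18 for Pold1, -0.38 for Fen1, -0.36 for Lig1, -0.0223 for Rrm1, -0.25 for Tyms, -0.14 for Tk1, -0.24 for Chaf1b, -0.53 for Uhrf1 and -0.19 for Hells. In limma on log2(FPKM + 1) it changed sign to 0.0988 for Cdt1 and 0.24 for Pcna. On log2(FPKM + 0.1) it changed sign to 0.0817 for Cdt1 and 0.25 for Pcna. On log2(FPKM + 1) with no filter it changed sign to 0.0168 for Cdc6, 0.0988 for Cdt1, 0.000238 for Mcm10 and 0.24 for Pcna. Leaving out each library in turn gave log2 fold changes of -0.14 to 0.56 for Ccne1, -0.26 to 0.56 for Orc1, -0.48 to 0.12 for Cdt1, -0.27 to 0.48 for Mcm5, -0.0131 to 0.63 for Mcm7, -0.29 to 0.0676 for Pcna, -0.17 to 0.59 for Prim1, -0.31 to 0.39 for Fen1, -0.022 to 0.47 for Lig1, -0.12 to 0.29 for Chaf1b and -0.12 to 0.63 for Uhrf1.

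Depth limits Orc1 and Gins1 most, with 0 counts in CD 3 and 4 counts in CD 4. There were 4 libraries per diet, 2 of the CD libraries stood apart from the rest and TMM factors differed widely. The diet difference of the 34 genes was within the spread between libraries. The interaction rests on 2 libraries in each cell and on a division chosen from these same data.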
